A study of Mus musculus with 6 samples.

Results

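The genes described here make cholesterol and fatty acids or control that synthesis. They were taken by name from the deposited tables, from a list of 32 symbols, and all 32 were found among the 55487 genes measured. The list falls into 7 genes of the mevalonate branch, 11 that turn its product into cholesterol, 6 regulators and carriers, and 8 of fatty acid synthesis, elongation and desaturation. It does not hold every enzyme of these pathways, and those outside it and outside the related genes named further on are not analysed here. RNA came from primitive macrophages, the earliest macrophages of the embryo and the source of microglia, which were grown from mouse embryonic stem cells and collected on day 12 of a differentiation with M-CSF, IL-3, SCF, VEGF, activin A, BMP-4 and FGF2. The stem cells were established from wild-type mice (3 libraries) or from Ts1Cje mice (3 libraries). Ts1Cje is a Down syndrome model with an extra copy of the distal part of chromosome 16, and none of the 32 genes lies on chromosome 16. The study asked why Ts1Cje embryos have fewer microglia.

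Cells make cholesterol from acetyl-CoA through mevalonate, squalene and lanosterol, and they make fatty acids from acetyl-CoA through malonyl-CoA. Both routes are driven by the SREBP transcription factors, which SCAP carries from the endoplasmic reticulum to the Golgi when sterols are scarce and which INSIG proteins hold back when sterols are plentiful. In macrophages the balance between making, taking up and exporting sterols is known to shape membrane composition and inflammatory responses.

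Values are listed in the order of replicates 1, 2 and 3 of each genotype, an order whose meaning the labels do not give. Total counts were 25484294 to 32658148 per library and all 32 genes passed the filter on low counts. The labels number the replicates of each genotype as lots and do not tell whether a lot is its own stem cell line or its own differentiation, so p-values measure the spread between these samples, which may be technical. Wild-type replicate 1 stood apart: it scored -88.2 on the first principal component of log2 CPM (CPM, read counts scaled to a common library total), against -18.7 to 38.7 in the other 5 libraries, and that component held 37.8% of the variance. The cultures carried macrophage RNA. The summed level of 12 macrophage genes was 19920, 12891 and 9174 CPM in wild-type and 10627, 13114 and 17892 CPM in Ts1Cje libraries. This order largely follows Lyz2, named after its values were seen. Lyz2 alone was at 10060, 4547 and 2319 CPM in wild-type and 3362, 6305 and 10863 CPM in Ts1Cje libraries. Gene by gene, in log2 CPM, the 12 did not share 1 order. On that scale 4 were highest and 1 was lowest in wild-type replicate 1, and 1 was highest and 2 were lowest in wild-type replicate 3. Of 6 markers of adipocytes, cells that make much lipid, 5 had a count of 0 in all libraries and the sum reached at most 0.0641 CPM. The sum of 10 markers of visceral endoderm and liver was 1.98 to 27.6 CPM in wild-type, with the highest value in replicate 1, and 12.0 to 13.3 CPM in Ts1Cje libraries, with Alb, Amn and Apoa4 at 0 throughout. Summed endothelial markers (7, with Emcn and Cldn5 at 0) were 14.3 to 53.8 CPM in wild-type, lowest in replicate 1, and 29.7 to 69.8 CPM in Ts1Cje libraries. Summed mesenchymal markers (8) were 19.03 to 44.7 CPM and 11.8 to 82.0 CPM, and pluripotency markers (8, with Sox2 and Esrrb at 0) at most 0.833 CPM. The sum of 6 globin genes of red blood cells, a set formed after values were seen, was 0.0785, 2.78 and 7.47 CPM in wild-type and 2.60, 1.15 and 0 CPM in Ts1Cje libraries, highest in wild-type replicate 3. In bulk RNA, fewer cells of a type and less RNA per cell cannot be told apart.

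No gene of the list passed the test between the genotypes, and for 30 of 32 the spread was wider among the wild-type than among the Ts1Cje libraries. With edgeR's quasi-likelihood test and Benjamini-Hochberg adjustment over 13821 genes, 0 of 32 passed an adjusted p of 0.05, where 0.00724% of all tested genes did. The adjusted p of the members ran from 0.792 to 0.996. At an unadjusted p under 0.05 there were 2 of 32 members, Insig2 and Scd1, against 5.79% of all tested genes. DESeq2 called 0 members (0.405% of all genes) and had 2 at an unadjusted p under 0.05 (7.15%), and limma-voom called 0 (0.00724%) with 1 at that level (6.45%). Each of the 16 alternative settings called 0 members. Of all genes they called 0.00724% with RLE or upper-quartile factors, 0.0122% without a filter, 0% with the stricter filter or the replicate block, 0.00765% on either filtered TPM scale and 0.00408% on the unfiltered one. Leaving out wild-type replicate 1, 2 or 3 gave 0.00695%, 0.00689% and 0.041%, and leaving out Ts1Cje replicate 1, 2 or 3 gave 0.0069%, 0.0069% and 0.00686%.

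The log2 fold change (Ts1Cje minus wild-type) was above 0 for 28 of 32 members, where it was for 49.2% of all tested genes, and its median was 0.23, against -0.01 over all tested genes. The share of members above 0 depended on wild-type replicate 1. Without that library 17 of 32 were above 0 (49.7% of all genes tested then) and the median was 0.01. A fall must follow there, since that library had the lowest level in 30 of 32 members. Leaving out wild-type replicate 3 put 30 of 32 above 0 at a median of 0.51, where 48.8% of all genes were above 0, with 15 of 32 at an unadjusted p under 0.05 (16.1%) and 17 of 32 higher without overlap (18.2%). With the replicate number as a block, 27 of 32 were above 0 (51% of all genes). By branch the medians over all 6 libraries were 0.40 in the mevalonate branch, 0.31 from squalene to cholesterol, 0.14 among regulators and -0.05 in the fatty acid branch. Groups did not overlap for 1 of 32 members with Ts1Cje higher (6.38% of all genes) and for 0 with Ts1Cje lower (5.72%). For 20 of 32 members, 62.5%, all 3 Ts1Cje libraries lay inside the range of the wild-type libraries, against 25.4% of all tested genes.

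**Figure D1:**
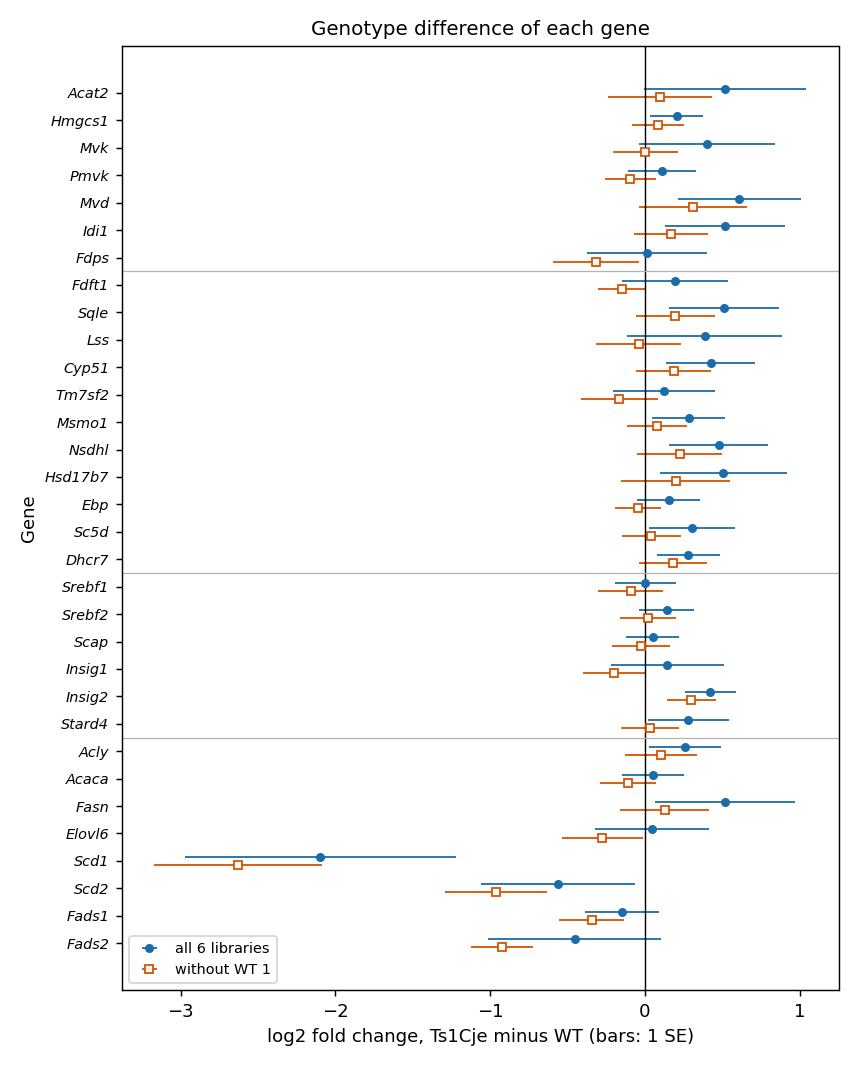
Log2 fold change between Ts1Cje and wild-type for each of the 32 genes (x axis; points are edgeR estimates, bars 1 SE), with all 6 libraries (filled) and without wild-type replicate 1 (open), grouped by branch. With all libraries 28 genes lie above 0, and without wild-type replicate 1 there are 17, while Scd1, Scd2 and Fads2 move further below 0.

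Library by library, the list had a common pattern within the wild-type group. Wild-type replicate 1 had the lowest level of the 6 libraries in 30 of 32 members, where it was the lowest for 25.9% of all tested genes. The exceptions were Srebf1, lowest in Ts1Cje replicate 2 (12.1% of all tested genes), and Scap, lowest in Ts1Cje replicate 1 (15.2%). Wild-type replicate 3 had the highest level in 18 of 32 members (13.8% of all tested genes) and Ts1Cje replicate 3 in 11 of 32 (15.5%). Relative to each gene's mean over the 6 libraries, the median log2 CPM of the members was -0.82, -0.12 and 0.41 in the wild-type libraries, against 0.10, 0.06 and 0.31 in the Ts1Cje libraries. The medians over all tested genes lay between 0.01 and 0.02 in every library. The 3 Ts1Cje libraries thus lay close together and inside the wild-type range.

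The spread among the wild-type libraries was wider than among the Ts1Cje libraries in 30 of 32 members, where it was for 64.4% of all tested genes. The median SD of log2 CPM over the members was 0.63 in wild-type and 0.23 in Ts1Cje libraries. The ratio of wild-type replicate 3 to replicate 1 ran from 1.16 for Scap to 6.50 for Fads2, with a median of 2.33. Summed over the 32 genes, TPM (abundance scaled by gene length and library, which allows levels of different genes to be compared) was 2108, 4270 and 5345 in the wild-type set, against 3810, 3608 and 4452 in the Ts1Cje set.

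The same wild-type library was low in genes of cell division. All 20 genes of a G1/S list (DNA replication) had their lowest level in wild-type replicate 1, with a median of -1.37 relative to the gene mean. Their other medians were -0.09 and 0.47 in wild-type replicates 2 and 3, against 0.61, 0.32 and -0.19 in the Ts1Cje set. All 20 genes of a G2/M list (mitosis) were lowest in wild-type replicate 1 too, with a median of -2.35. Their other medians were 0.66 and 0.68 in wild-type replicates 2 and 3, against 0.75, 0.43 and -0.15 in the Ts1Cje set. Wild-type replicate 2 was thus high in G2/M genes, where the lipid synthesis median was -0.12. The lipid synthesis and G1/S lists parted in Ts1Cje replicate 3, which was high in lipid synthesis genes and low in G1/S genes. Whether cell division or the markers of other cell types given above had a part in the level of the lipid synthesis genes was not tested.

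**Figure D2:**
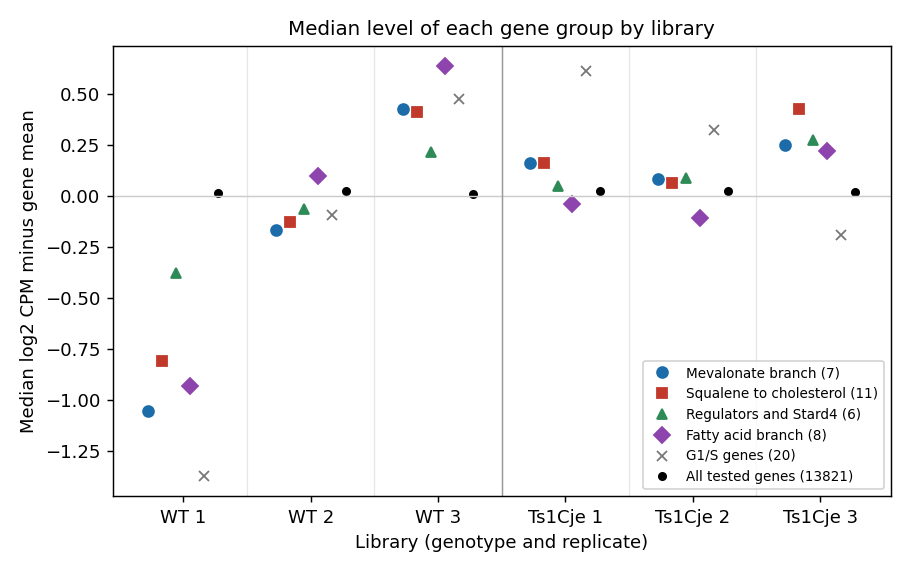
Median log2 CPM relative to each gene's mean over 6 libraries (y axis) in each library (x axis), for the 4 branches of the list, 20 G1/S genes and all 13821 tested genes. All 4 branches are lowest in wild-type replicate 1, the regulators least so at -0.38, and Ts1Cje replicate 3 has the branches above 0 and the G1/S genes at -0.19.

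**Figure D3:**
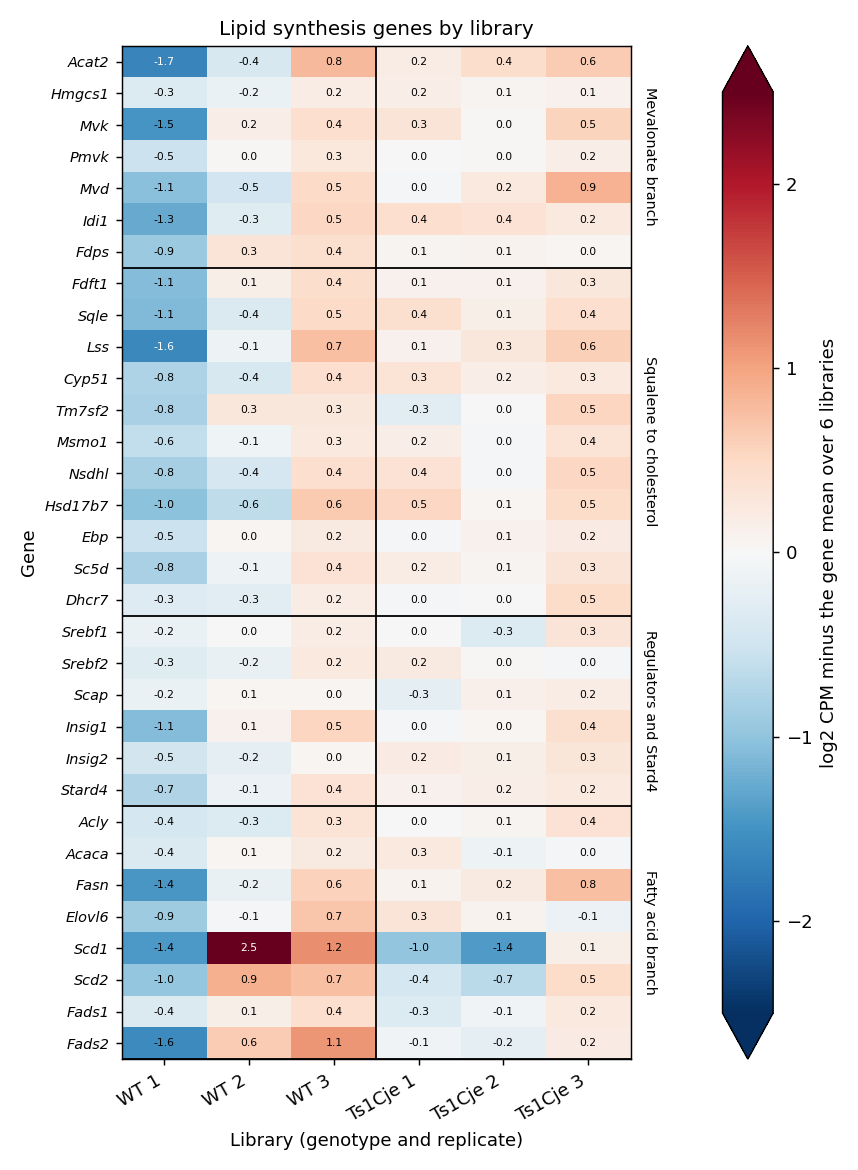
Log2 CPM of each of the 32 genes (rows, by branch) in each library (columns) minus the gene's mean over the 6 libraries; blue is below and red above that mean. The wild-type replicate 1 column is blue in every row, down to -1.7 for Acat2, and the strongest red cell is Scd1 in wild-type replicate 2, at 2.5.

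In the mevalonate branch, Hmgcs1, the cytosolic synthase that joins acetyl-CoA to acetoacetyl-CoA, and Acat2, the thiolase before it, had the highest levels per length, at means of 259.9 and 158 TPM over the 6 libraries. Hmgcs1 was at 312, 353 and 448 CPM in wild-type and 442, 413 and 428 CPM in Ts1Cje libraries, or 371 ± 69.9 against 427 ± 14.5 CPM (mean and SD, n = 3). The Ts1Cje values lay in the upper part of the wild-type range, and the log2 fold change was 0.21 ± 0.17 (SE). Acat2 varied most in this branch, at 37.3, 88.6 and 205 CPM in wild-type and 133, 158 and 183 CPM in Ts1Cje libraries. Its wild-type replicates differed 5.49-fold while all Ts1Cje values lay between wild-type replicates 2 and 3, and the log2 fold change was 0.52 ± 0.52 (SE). The level of Acat2 is uncertain, since 45.9% of the 50-base stretches of its longest transcript also occur in Acat3, which had 107 counts against 22864 for Acat2, and 13.2% in Tcp1. Tcp1 had 3458, 3599 and 4681 counts in wild-type and 6540, 5367 and 5251 counts in Ts1Cje libraries.

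Mvd, the decarboxylase that makes isopentenyl diphosphate, had the highest fold change of the branch. It was at 40.5, 60.6 and 117 CPM in wild-type and 81.6, 99.3 and 153 CPM in Ts1Cje libraries, a log2 fold change of 0.61 ± 0.40 (SE). Ts1Cje replicates 1 and 2 lay below wild-type replicate 3, so the groups overlapped. Idi1, the isomerase that follows, was at 30.3, 59.3 and 104 CPM in wild-type and 97.6, 94.1 and 86.3 CPM in Ts1Cje libraries (log2 fold change 0.52 ± 0.39, SE). Here the Ts1Cje libraries were nearly level and wild-type replicates 1 and 2 lay below all of them. Of the 50-base stretches of Idi1, 30.5% also occur in transcripts of other genes, so its level is uncertain too. The 4 pseudogenes among those genes had 119 counts together, against 13473 for Idi1. The kinases Mvk and Pmvk had log2 fold changes of 0.40 ± 0.44 and 0.11 ± 0.22 (SE), both lowest in wild-type replicate 1.

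Fdps, the synthase of farnesyl diphosphate, had the lowest level of the list, at a mean of 3.52 TPM, and its value is uncertain. Of the 50-base stretches of its longest transcript in GENCODE M21, 86.4% also occur in transcripts of other genes, 7 of them processed pseudogenes. The largest share, 77.3%, was with Gm43738, which is annotated as protein-coding and had 4 counts over the 6 libraries. How reads with several positions were counted was not stated in the labels or notes. Fdps itself had 836 counts over the 6 libraries, while the pseudogene Gm3571, chosen after its values were seen, had 4387. Fdps was at 2.47, 5.98 and 6.31 CPM in wild-type and 4.97, 5.03 and 4.91 CPM in Ts1Cje libraries, a log2 fold change of 0.01 ± 0.39 (SE). Counts of Fdps and its 7 pseudogenes together came to 11.7, 28.7 and 49.2 CPM of the plain library total in wild-type and 38.7, 33.1 and 39.97 CPM in Ts1Cje libraries. With the pseudogenes added, wild-type replicate 1 was still the lowest and wild-type replicate 3 the highest. Any reads left uncounted because they also match Gm43738 are not in this sum.

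From squalene to cholesterol all 11 genes had their lowest level in wild-type replicate 1, and log2 fold changes ran from 0.12 to 0.51. Msmo1, which removes methyl groups from lanosterol's products, was the most abundant at 319 TPM. It was at 420, 593 and 765 CPM in wild-type and 718, 627 and 819 CPM in Ts1Cje libraries (log2 fold change 0.28 ± 0.24, SE). Sqle, the epoxidase that is rate-limiting for the later part of the pathway, was at 144, 242 and 431 CPM in wild-type and 410, 341 and 414 CPM in Ts1Cje libraries. Its Ts1Cje values lay between wild-type replicates 2 and 3, and its log2 fold change of 0.51 ± 0.36 (SE) was the highest of these genes.

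Lss, which closes the ring of lanosterol, varied most, at 24.9, 70.4 and 129 CPM in wild-type and 82.6, 94.0 and 117 CPM in Ts1Cje libraries. Wild-type libraries thus differed 5.17-fold where Ts1Cje libraries stayed within the wild-type range (log2 fold change 0.39 ± 0.50, SE). Cyp51, the lanosterol demethylase, was at 140, 183 and 320 CPM in wild-type and 307, 270 and 287 CPM in Ts1Cje libraries (0.42 ± 0.29, SE). Nsdhl, an X-linked dehydrogenase of the same demethylation steps, was at 36.5, 49.0 and 87.2 CPM in wild-type and 83.4, 63.8 and 93.1 CPM in Ts1Cje libraries (0.48 ± 0.32, SE). For both genes wild-type replicates 1 and 2 lay below all Ts1Cje libraries and wild-type replicate 3 lay among or above them.

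Tm7sf2, a sterol reductase on chromosome 19, had the lowest fold change of these enzymes. It was at 17.2, 36.30 and 36.30 CPM in wild-type and 24.8, 29.8 and 43.3 CPM in Ts1Cje libraries (log2 fold change 0.12 ± 0.33, SE). Wild-type replicates 2 and 3 were level here and above Ts1Cje replicates 1 and 2. The remaining enzymes Fdft1, Hsd17b7, Ebp, Sc5d and Dhcr7 had log2 fold changes of 0.15 (Ebp) to 0.51 (Hsd17b7). Fdft1 shares 19.9% of its 50-base stretches with Ctsb, a cathepsin gene that overlaps its end on the other strand and had 669202 to 969072 counts per library. Without a stated strand setting, reads of Ctsb in that stretch cannot be told from reads of Fdft1.

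Among the wild-type libraries the regulators had the lowest median SD of log2 CPM of the 4 branches, at 0.27. Among the Ts1Cje libraries theirs was 0.18, above the 0.091 of the mevalonate branch. Srebf2, the factor that favours cholesterol genes, was at 166, 181 and 243 CPM in wild-type and 239, 209.9 and 199.7 CPM in Ts1Cje libraries (log2 fold change 0.14 ± 0.18, SE). Srebf1, whose products favour fatty acid genes, was at 79.1, 89.9 and 101 CPM in wild-type and 88.0, 70.6 and 112 CPM in Ts1Cje libraries. The log2 fold change of Srebf1 was 0.00 ± 0.19 (SE), and its sign turned in 12 of 16 alternative settings, so that no direction can be given. Scap, the escort, differed 1.36-fold between its highest and lowest library, the least of the list. Per length Srebf2 exceeded Srebf1 in all 6 libraries, with Srebf1 at 30.03% to 41.7% of the sum of both in TPM.

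Insig1, a retention protein and itself a target of the SREBP factors, was at 80.2, 183 and 246 CPM in wild-type and 166, 175 and 223 CPM in Ts1Cje libraries, a log2 fold change of 0.15 ± 0.37 (SE). All Ts1Cje values fell inside the wild-type range, which spanned 3.06-fold. Insig2 (chr1:121304353-121332589 in mm10, minus strand) was the member whose groups did not overlap. It was at 40.5, 47.2 and 57.4 CPM in wild-type and 64.5, 61.3 and 68.6 CPM in Ts1Cje libraries, means of 48.4 ± 8.50 and 64.8 ± 3.65 CPM (SD, n = 3). The fitted difference was 0.42 ± 0.16 on the log2 scale (SE), and edgeR's test gave an unadjusted p of 0.0349 and a Benjamini-Hochberg adjusted p of 0.792. Without wild-type replicate 1 the log2 fold change of Insig2 was 0.30 ± 0.16 (SE), and edgeR's unadjusted p was 0.0997. In TPM, Insig1 made up 69.0%, 81.4% and 82.8% of the sum of both genes in wild-type and 74.3%, 76.2% and 78.5% in Ts1Cje libraries. Stard4, a carrier of cholesterol between membranes, was at 25.4, 38.8 and 55.0 CPM in wild-type and 46.2, 48.2 and 50.6 CPM in Ts1Cje libraries (0.28 ± 0.26, SE).

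The fatty acid branch divided by gene. Acly, Acaca, Fasn and Elovl6, which make acetyl-CoA in the cytosol, make malonyl-CoA, build palmitate and lengthen it, had log2 fold changes of 0.26, 0.05, 0.52 and 0.05. Fasn, which had the highest fold change of the branch, was at 59.6, 142 and 244 CPM in wild-type and 173, 190 and 275 CPM in Ts1Cje libraries (0.52 ± 0.45, SE). Wild-type replicates 1 and 2 lay below all Ts1Cje libraries, as for Idi1 and Cyp51. Acaca shares 52.6% of its 50-base stretches with the pseudogene Gm5182, which had 1253 counts against 5952 for Acaca, so its level is uncertain.

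The desaturase genes Scd1, Scd2, Fads1 and Fads2 had log2 fold changes below 0 over all 6 libraries, at -2.10, -0.56, -0.15 and -0.45. Without wild-type replicate 3 these were -2.23, -0.37, 0.05 and 0.06, so the sign of Fads1 and Fads2 turned. SCD enzymes place the double bond of oleate and palmitoleate, and FADS enzymes act on polyunsaturated fatty acids. Scd1 was at 4.01, 63.7 and 24.6 CPM in wild-type and 5.44, 4.02 and 12.1 CPM in Ts1Cje libraries, means of 30.8 ± 30.3 and 7.19 ± 4.32 CPM (SD, n = 3). Wild-type replicates 2 and 3 were thus high and wild-type replicate 1 was level with Ts1Cje replicate 2. For Scd1 the log2 fold change was -2.10 ± 0.87 (SE), and edgeR's test gave an unadjusted p of 0.0450 and a Benjamini-Hochberg adjusted p of 0.792.

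Scd2 was the most abundant gene of the list in every library, at a mean of 1016 TPM, and made up 16.2% to 39.3% of the summed TPM of the 32 genes. It was at 842, 3054 and 2767 CPM in wild-type and 1222, 1033 and 2262 CPM in Ts1Cje libraries (log2 fold change -0.56 ± 0.50, SE). Wild-type replicates 2 and 3 were again above all Ts1Cje libraries. Fads1 was at 304, 430 and 523 CPM in wild-type and 308, 366 and 460 CPM in Ts1Cje libraries (-0.15 ± 0.24, SE), with full overlap. Fads2, described because its range was wide and chosen after its values were seen, was at 27.5, 129 and 179 CPM in wild-type and 78.0, 70.6 and 95.9 CPM in Ts1Cje libraries (-0.45 ± 0.56, SE). In TPM, Scd1 was 0.433% to 2.28% of the sum of Scd1 and Scd2, with the highest share in wild-type replicate 2.

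**Figure D4:**
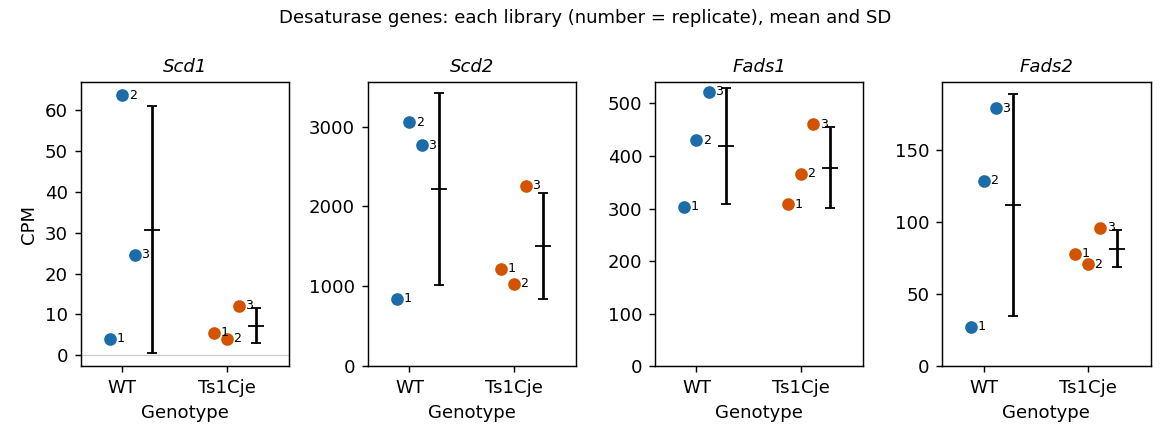
CPM (linear y axes from 0) of Scd1, Scd2, Fads1 and Fads2 in each library of both genotypes (x axis); numbers are replicates, and the black marks are the mean and SD of 3 libraries. Wild-type replicate 1 is the lowest point in each panel, and wild-type replicates 2 and 3 lie above all Ts1Cje points for Scd1, Scd2 and Fads2.

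Without wild-type replicate 1 the Scd1, Scd2 and Fads2 differences grew, as must follow when the lowest library of each gene is left out. Their log2 fold changes were then -2.63 ± 0.54, -0.96 ± 0.33 and -0.93 ± 0.20 (SE), and the unadjusted p was 0.00175, 0.022 and 0.00236. Adjusted over the 14387 genes tested in that fit by edgeR, p was 0.843, 0.989 and 0.843, so none passed, and 3 of 32 members had an unadjusted p under 0.05 (4.78% of all genes). Insig2, whose groups cannot overlap once they do not with all libraries, was the 1 member higher without overlap (9.67%). With Fdps, 4 of 32 members then had every Ts1Cje library below both wild-type libraries, where 10.2% of all genes had.

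These 4 desaturase genes lie on chromosome 19, Fads2 and Fads1 at chr19:10062765-10101746 and chr19:10182888-10196877 and Scd2 and Scd1 at chr19:44293674-44306864 and chr19:44394455-44407879 in mm10. The median of the 494 tested genes of chromosome 19, relative to each gene's mean, was -0.10, 0.01 and 0.27 in the wild-type set, against -0.19, 0.14 and -0.01 in the Ts1Cje set. The medians of the 4 genes were -1.20, 0.76 and 0.92 in the wild-type set, against -0.39, -0.46 and 0.22 in the Ts1Cje set. The chromosome had a median log2 fold change of -0.10, and 303 of its 494 genes were below 0. Of those 494 genes, 3 had a log2 fold change as low as that of Scd1 or lower, 54 as low as that of Scd2, 75 as low as that of Fads2 and 211 as low as that of Fads1. The part of the chromosome in the values of the 4 genes was not tested.

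Since most members shared the low library, their promoters were searched for letters known to be bound by factors of this pathway. RefSeq windows (GRCm38.p6) of 300 bases around the start were matched for 25 of 32 genes, with 33 windows in all. Entries were not matched for Fads1, Fdft1, Fdps, Scd1, Scd2, Sqle and Stard4. The SREBP motif TCACNCCAC was found on either strand in 1 of 33 windows, that of Hmgcs1, and in 1.2% of all 32851 windows. CCAAT, which NF-Y binds, was in 21 of 33 windows (63.6%) and in 37.4% of all windows. GGGCGG, which Sp1 binds, was in 25 of 33 (75.8%) and in 35.7% of all windows. Counted by gene, 80.0% of the 25 members held CCAAT and 84.0% held GGGCGG, against 43.2% and 68.0% of 9850 tested genes with a window.

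The sequences below are 150 bases before the start that touch no GENCODE M21 exon, 5′ to 3′ on the gene's strand, with matches to the 3 motifs on either strand in capitals. They are shown for the gene of each branch with such a window and the widest ratio between wild-type replicates 3 and 1, for Hmgcs1 with the SREBP motif, and for Scap with the narrowest ratio.
Acat2, chr17:12960748-12960897, minus strand: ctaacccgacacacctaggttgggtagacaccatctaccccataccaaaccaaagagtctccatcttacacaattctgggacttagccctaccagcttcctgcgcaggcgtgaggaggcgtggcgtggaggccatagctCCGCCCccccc
Lss, chr10:76531438-76531587, plus strand: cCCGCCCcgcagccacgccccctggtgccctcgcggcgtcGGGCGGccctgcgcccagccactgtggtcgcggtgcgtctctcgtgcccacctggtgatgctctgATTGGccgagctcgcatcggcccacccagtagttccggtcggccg
Insig1, chr5:28071213-28071362, plus strand: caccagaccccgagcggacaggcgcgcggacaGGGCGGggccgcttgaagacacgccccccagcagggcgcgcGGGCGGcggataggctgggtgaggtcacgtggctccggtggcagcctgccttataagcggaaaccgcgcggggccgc
Fasn, chr11:120824548-120824697, minus strand: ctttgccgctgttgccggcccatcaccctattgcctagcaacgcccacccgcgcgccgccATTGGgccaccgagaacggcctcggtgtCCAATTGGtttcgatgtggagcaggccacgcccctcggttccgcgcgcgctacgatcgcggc
Hmgcs1, chr13:119690201-119690350, plus strand: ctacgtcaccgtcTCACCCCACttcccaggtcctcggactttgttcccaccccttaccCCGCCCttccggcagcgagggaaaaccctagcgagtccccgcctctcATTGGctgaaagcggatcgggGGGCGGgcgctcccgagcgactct
Scap, chr9:110333138-110333287, plus strand: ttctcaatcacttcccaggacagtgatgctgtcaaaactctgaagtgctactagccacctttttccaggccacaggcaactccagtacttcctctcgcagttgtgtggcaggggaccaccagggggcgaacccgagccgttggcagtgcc

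In the stretch shown, Hmgcs1 held 1 SREBP, 1 NF-Y and 2 Sp1 matches, and Fasn held 3 NF-Y matches, of which the last 2 overlap on opposite strands. Lss held 1 NF-Y and 2 Sp1 matches, Insig1 held 2 Sp1 matches, Acat2 held 1, and Scap held none of these motifs. The ratio of wild-type replicate 3 to replicate 1 was 1.44 for Hmgcs1, 4.09 for Fasn, 5.17 for Lss, 3.06 for Insig1, 5.49 for Acat2 and 1.16 for Scap. Over the 20 members with CCAAT in a window the median ratio was 2.19, and over the 5 without it was 2.99. A match is a description of the letters and does not show that a factor binds there.

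Other genes of the same pathways, 32 that are no members, showed the pattern to a lesser degree. They include proteases of SREBP, acyl-CoA synthetases and elongases. Of these 0 passed edgeR in either direction (0.00724% of all tested genes). Their lowest level was in wild-type replicate 1 for 19 of 32 (25.9% of all tested genes). The log2 fold change was above 0 for 24 of 32 (49.2% of all tested genes), with a median of 0.11. Without wild-type replicate 1 it was above 0 for 18 of 32 (49.7% of all genes tested then), with a median of 0.03. The related genes with the smallest p over all 6 libraries were Mbtps1, the protease that makes the first cleavage of SREBP, and Hacd2, a dehydratase of fatty acid elongation. Hacd2 lies at chr16:35022428-35109177 in mm10, outside the distal segment that Ts1Cje carries in extra copy. Mbtps1 was at 92.2, 83.0 and 92.8 CPM in wild-type and 103, 113 and 107 CPM in Ts1Cje libraries, with a log2 fold change of 0.27 ± 0.12 (SE). Hacd2 was at 70.4, 82.9 and 82.9 CPM in wild-type and 86.7, 111 and 94.7 CPM in Ts1Cje libraries (0.31 ± 0.15, SE). For both, the groups did not overlap, and the adjusted p of both genes was 0.792 by edgeR. Of the 32 related genes, 3 were higher in Ts1Cje without overlap (6.38% of all tested genes) and 0 were lower (5.72%).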

How the data were processed

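Libraries were prepared from total RNA with a SMART-seq HT Plus kit, per the labels' protocols. HISAT2 2.1.0, featureCounts 1.6.3, Trimmomatic 0.38, FastQC 0.11.7 and the build mm10 are named in the submitters' processing notes. Neither strand setting, annotation nor the counting of reads with several positions was stated in the labels or notes. The authors deposited raw counts and TPM per gene, 1 column per library. Column names were matched to the labels by genotype and lot number.

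Genotypes were compared on counts with edgeR 4.0.16 in R 4.3.3 over all genes: filterByExpr (count minimum 10, total minimum 15), TMM factors, quasi-likelihood test, genotype as the only term, Benjamini-Hochberg adjustment over 13821 genes, threshold 0.05. SE is the log2 fold change divided by the root of F. Log2 CPM used a prior count of 2. CPM and log2 CPM use the TMM-scaled library total, except marker sums, the CPM of Lyz2 and sums with pseudogenes, which use the plain total. Alternatives were RLE and upper-quartile factors, no filter, a CPM of at least 1 in all 6 libraries, DESeq2 1.42.0, limma-voom (limma 3.58.1), limma on log2(TPM + 1) and log2(TPM + 0.1) with a mean TPM of at least 1 or none, a replicate block, and each library left out. The scripts were tested on simulated data. Libraries of 1 genotype differed by more than sampling noise.

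The members, the lists and the tests were chosen with earlier results of these data known. Per branch, values by library are given for the 2 members with the highest mean TPM, the 2 with the smallest p, those with the highest and lowest fold change and that with the largest range, for the SREBP and Insig genes in any case, and for the 3 related genes with the smallest p, of which 1 is not reported here. Any other is said to be chosen later.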

Additional observations from a re-analysis of the deposited data

How the results depend on the processing

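Under 16 alternative settings 0 members and 0 related genes passed an adjusted p of 0.05. With each library left out in turn, 17 to 30 members had a log2 fold change above 0, the median over members ran from 0.01 to 0.51, and groups did not overlap for 1 to 17 members higher and 0 to 4 lower in Ts1Cje. The 17 higher came without wild-type replicate 3, where 18.2% of all genes had this, 15 of 32 members had an unadjusted p under 0.05 (16.1% of all genes) and the smallest adjusted p was 0.109 by edgeR. The median of the regulators was 0.42 without wild-type replicate 3.

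In the other 10 settings 26 to 28 members were above 0 and the median was 0.20 to 0.29. Fdps was at -0.0182 with upper-quartile factors. Srebf1 was at -0.00261 with RLE factors, -0.0306 with upper-quartile factors, -0.00792 with the stricter filter, -0.00261 with DESeq2, -0.0145 with limma-voom, -0.0203 on log2(TPM + 1) with or without the filter, -0.0208 on log2(TPM + 0.1) and -0.0142 with the replicate block. The cause was not tested.

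With a library left out, the log2 fold change ran from -0.0936 to 0.30 for Pmvk, -0.32 to 0.24 for Fdps, -0.15 to 0.51 for Fdft1, -0.0384 to 1.04 for Lss, -0.16 to 0.29 for Tm7sf2 and -0.0449 to 0.32 for Ebp. It ran from -0.19 to 0.15 for Srebf1, -0.0393 to 0.18 for Scap, -0.20 to 0.51 for Insig1, -0.11 to 0.19 for Acaca, -0.27 to 0.51 for Elovl6, -0.34 to 0.0457 for Fads1 and -0.93 to 0.0632 for Fads2. Of these 13 genes 11 turned sign without wild-type replicate 1. The other 19 genes kept their sign in all 16 settings.

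The labels do not say whether lots of the same number share anything. Over all tested genes the data gave no sign of pairing. Deviations from the group means correlated at -0.18, -0.05 and -0.06 for lots 1 to 3, and no library correlated best with its own number. Pairing within the list alone was not tested. With the replicate block 0 members were called, 27 were above 0 (51% of all genes), and the median was 0.29. Under the block edgeR's unadjusted p was 0.0104 for Mvd and 0.172 for Scd1, against 0.166 and 0.0450 without it. The adjusted p of the members under the block ran from 0.932 to 0.998. Precision is limited by 3 libraries per genotype. Fdps, at 61 to 168 counts per library, is the only member under 99 counts in any library.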
